A study of Mus musculus with 32 samples.

Results

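DNA replication was described through 39 genes that encode the enzymes and accessory proteins of the mammalian replication fork and of its preparation. The genes were chosen by name, and all 39 were found by symbol among the 31053 genes of the count matrices. The data were single-cell RNA-seq of BMSC-OBs, which are bone marrow stromal cells that were differentiated towards osteoblasts in culture, from Diversity Outbred (DO) mice, a stock in which each animal is genetically different. All samples received the same culture conditions, so there was no treated or control group. Cells of 4 or 5 mice were mixed in each of 16 pools (77 mice in all), each pool was sequenced in 2 runs, and the pool was the replicate because the mice within it were not told apart here. Values come from run HGYVNCCX2. The second run, HHFFMCCX2, read the same droplets again and served as a check.

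Before a cell divides, origin recognition proteins (*Orc1*, *Orc6*) recruit *Cdc6* and *Cdt1*, which load the MCM helicase (*Mcm2* to *Mcm7*) onto DNA, and *Cdc45* with the GINS subunits (*Gins1*, *Gins2*) then switches the helicase on. Primase and DNA polymerases copy the strands on the sliding clamp *Pcna*, which the RFC complex loads, while RPA coats single strands, *Fen1* and *Lig1* join Okazaki fragments, and *Rrm1*, *Rrm2*, *Tyms*, *Tk1* and *Dut* keep deoxynucleotides in supply. Many of these genes are transcribed by E2F factors at the transition from G1 to S phase, and in bone marrow cultures proliferation of progenitors is known to recede as osteoblasts mature.

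Upstream sequence was read for the genes that had an entry in the RefSeq promoter set (GRCm38.p6), which were 33 of the 39. The 250 bases before the start were searched on both strands for the E2F-type words TTTCCCGC, TTTGGCGC, TTTCGCGC and TTTGCCGC. A gene with several entries was counted once, as a match if any of them held a word. By this count 8 of the 33 genes had a match (24.2%), against 583 of all 27025 genes with an entry (2.16%). The 8 genes were *Cdc6*, *Mcm5*, *Mcm6*, *Mcm7*, *Orc1*, *Pola1*, *Rfc3* and *Uhrf1*. The CCAAT word, which NF-Y recognises, was present upstream of 21 of the 33 genes (63.6%), against 37.5% of all genes, counted in the same way. Among 21 mitosis genes with an entry, 1 held an E2F-type word (4.76%) and 17 (81.0%) held CCAAT. An E2F-type word was found for 7 of 18 G1-S control genes (38.9%), 2 of 8 histone and chromatin assembly genes (25%), 2 of 9 S-phase repair genes (22.2%) and 4 of 26 other replication genes (15.4%). The matched stretches of 3 genes that lay outside the GENCODE bounds of the gene itself are shown. Those of the other matched genes lay partly or wholly inside theirs, and overlap with other genes was not checked. The 3 genes shown belong to helicase subunits and to a polymerase whose levels are described below. Capitals mark the matched words, each stretch reads 5′ to 3′ on the strand of the gene, and adjoining words in *Mcm5* and *Mcm6* overlap.
Mcm5 (chr8:75109344-75109403, plus strand): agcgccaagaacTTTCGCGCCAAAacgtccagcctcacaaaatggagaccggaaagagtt
Mcm6 (chr1:128359733-128359827, minus strand): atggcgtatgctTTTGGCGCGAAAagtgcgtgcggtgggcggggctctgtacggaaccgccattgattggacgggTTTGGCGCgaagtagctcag
Pola1 (chrX:93632246-93632305, minus strand): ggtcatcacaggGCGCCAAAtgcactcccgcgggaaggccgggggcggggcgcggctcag
The first word began 153 bases before the start of *Mcm5*, 110 before that of *Mcm6* and 138 before that of *Pola1*. A match describes the letters only, and factor binding was not measured.

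The 16 pools held 107853 barcodes and 53990642 to 100777353 UMIs each, and 83906 cells remained after filtering. Cells were assigned to 4 classes by the mean z-score of marker genes: progenitor (*Col3a1*, *Timp3*, *Tagln*, *Acta2*, *Aspn*), osteogenic (*Bglap*, *Ibsp*, *Sp7*, *Dmp1* and 7 others), MALP-like, for marrow adipogenic lineage progenitors (*Lpl*, *Fabp4*, *Adipoq* and 4 others), and leukocyte (*Ptprc*, *Tyrobp* and 6 others). The classes held 15313, 24106, 9554 and 17330 cells, and 17603 cells (21%) met no gate. A class is a range of a score rather than a cell type, and 9722 cells (11.6%) lay within 0.1 z of a cut. The gate used these markers, so their levels describe the classes and do not test the labels. Medians over cells were 51.5 progenitor-marker UMIs per 10,000 in progenitor cells against 1.13 in osteogenic cells. Progenitor cells also carried a median of 83.6 osteogenic-marker UMIs per 10,000, against 798 in osteogenic cells. Any 2 pools shared 3 to 28 barcodes, and the 2 runs of a pool shared 84.5% to 99.8% of theirs. Depth differed between classes, with median UMIs per cell of 14936 (progenitor), 17252 (osteogenic), 7765 (MALP-like) and 4395 (leukocyte), so cells with at least 4000 UMIs were thinned to 4000 before detected genes were counted. This left out 4019, 3451, 2825 and 7829 cells of the 4 classes as too shallow.

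The share of cells in which 4 or more of the 39 genes were detected was highest in leukocyte and progenitor cells, intermediate in MALP-like cells and lowest in osteogenic cells. In leukocyte cells the share ran from 13.6% (pool 3) through a median of 25.4% to 41.0% (pool 14), with a mean of 26.1 ± 7.65% (SD, n = 16 pools). In progenitor cells it ran from 14.0% (pool 5) through 18.2% to 58.4% (pool 2), with a mean of 22.5 ± 12.6%. Pools 1 and 2, at 49.3% and 58.4%, stood apart from the other 14 pools, which ended at 22.6%. In MALP-like cells the share ran from 6.53% (pool 7) through 16.9% to 19.9% (pool 4), with a mean of 15.7 ± 3.79%. In osteogenic cells it ran from 1.54% (pool 8) through 3.25% to 25.5% (pool 2), with a mean of 5.36 ± 6.33%, and pool 1 was again second at 15.8%. No class is known to lack these genes, and the part of free RNA in the shares was not tested. The lowest share measured in a set of cells was in the osteogenic cells richest in osteocalcin, with a median of 1.59% and a mean of 4.11% over pools.

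**Figure D1:**
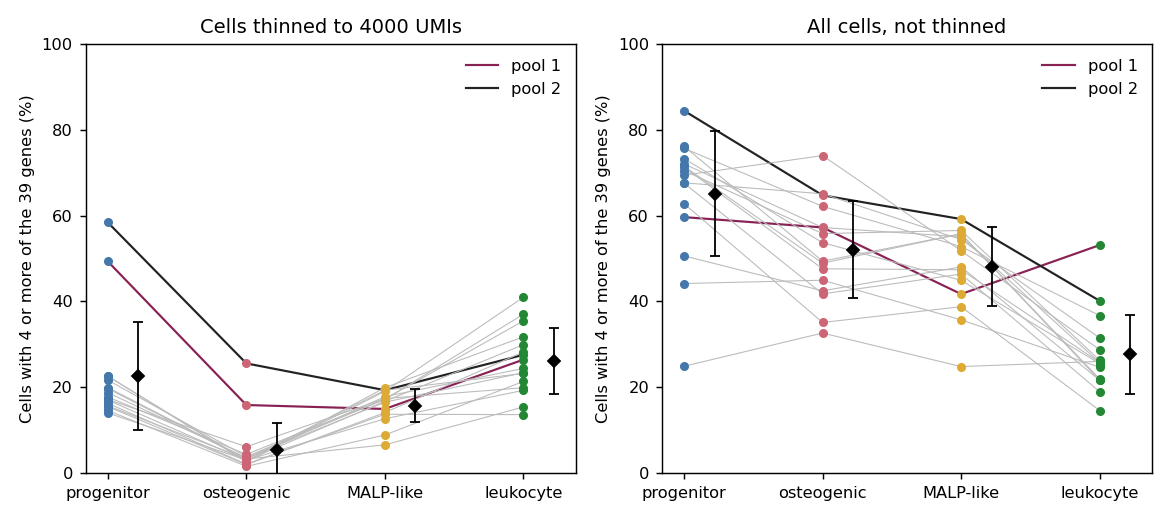
Share of cells (%) with 4 or more of the 39 replication genes detected, in cells thinned to 4000 UMIs (left) and in all cells without thinning (right); each point is a pool, lines join the classes of a pool, and diamonds with bars give the mean ± SD over 16 pools. In thinned cells osteogenic cells sit lowest (mean 5.36%) and pools 1 and 2 lie above all others in progenitor and osteogenic cells, and without thinning all class means are higher, from 27.7% in leukocyte to 65.1% in progenitor cells.

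Progenitor exceeded osteogenic cells by 17.2 ± 6.80 points (SD of the pool differences) in 16 of 16 pools (two-sided permutation test by sign flips over pools, adjusted p = 9.16e-05 over 6 pairs of classes). Progenitor cells exceeded MALP-like cells by 6.85 ± 11.9 points in 15 of 16 pools (permutation test, adjusted p = 9.16e-05), a difference that was 2.58 points without pools 1 and 2 (permutation test, adjusted p = 0.00029, n = 14). With 3 or more genes required in place of 4, this difference was 4.32 points over 16 pools and did not pass. Leukocyte cells exceeded MALP-like cells by 10.4 points in 15 of 16 pools (permutation test, adjusted p = 9.16e-05). Osteogenic cells lay below MALP-like cells in 14 of 16 pools (difference -10.3 points, permutation test, adjusted p = 0.00022). Progenitor and leukocyte cells differed by -3.57 ± 13.5 points, with leukocyte cells higher in 12 of 16 pools, which did not pass the permutation test (adjusted p = 0.307). Without pools 1 and 2 this difference was -7.92 points and passed (permutation test, adjusted p = 0.00061, n = 14), whereas over 16 pools thinned to 2000 UMIs it turned to 1.5 points (permutation test, adjusted p = 0.58). The class means in those 14 pools were 26% for leukocyte, 18.0% for progenitor, 15.5% for MALP-like and 3.17% for osteogenic cells. The order was different without thinning, where cells too shallow to be thinned were counted as well. Unthinned shares were 65.1% in progenitor, 52.0% in osteogenic, 48.0% in MALP-like and 27.7% in leukocyte cells. The parts of depth and of the cells counted in this difference were not tested.

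The summed level of the 39 genes, which is not a count of cells and needs no thinning, was lowest in osteogenic cells and highest in leukocyte cells, while progenitor cells exceeded MALP-like cells by the mean but not by the median over pools. It was 9.91 ± 2.47 UMIs per 10,000 in leukocyte cells (lowest pool 6.34, median 10.1, highest 15.9), 9.03 ± 4.83 in progenitor cells (6.02, 7.37 and 23.7), 7.78 ± 1.48 in MALP-like cells (4.94, 7.71 and 10.3) and 3.63 ± 2.31 in osteogenic cells (2.24, 2.90 and 10.7; SD, n = 16). Pool 2 was the highest in progenitor and osteogenic cells, and pool 14 in leukocyte cells. The 50 genes most abundant over all kept cells, 1 list for every class, took 36.2% of UMIs in osteogenic cells. They took 24.9% in progenitor cells, 18.5% in MALP-like cells and 19.9% in leukocyte cells. Leaving those genes out of the totals gave 5.65 in osteogenic and 12.0 in progenitor cells.

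Next, single genes were compared between classes with edgeR on UMI counts summed per pool and class, with log2 fold changes given ± SE. The first 3 comparisons use the same progenitor samples and are therefore not independent of each other. TMM scaling, which was used throughout, assumes that most genes do not differ, and scaling to total counts instead moved the median log2 fold change of all genes by -0.39 (osteogenic against progenitor), 0.26 (MALP-like against progenitor), -0.05 (leukocyte against progenitor) and 0.69 (MALP-like against osteogenic). The share of all calls that were higher moved with it, from 50.1% to 23.1%, from 49.9% to 73.7%, from 47.3% to 45.1% and from 49.4% to 81.4%.

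In osteogenic against progenitor cells, 35 of the 39 genes were lower, 1 was higher and 3 did not pass, where 39.9% of all 12819 genes tested were called lower and 40% higher. The median log2 fold change was -1.18 over the 39 genes and 0.00 over all genes tested. With scaling to total counts 38 were lower, and without pools 1 and 2 again 35. All 6 subunits of the MCM helicase fell, from *Mcm7* (-0.72 ± 0.08, adjusted p = 8.4e-08) to *Mcm5* (-1.93 ± 0.14, adjusted p = 8.9e-11). *Mcm5* was at 0.0614, 0.0971 and 0.644 UMIs per 10,000 in the lowest, median and highest pool of progenitor cells and at 0.0112, 0.018 and 0.289 in osteogenic cells. The ranges overlapped only through pools 1 and 2, while within each of the 16 pools progenitor cells were higher. All 7 genes of origin licensing and firing fell, between *Cdt1* (-0.67 ± 0.06, adjusted p = 2.2e-09) and the loader *Cdc6* (-1.62 ± 0.16, adjusted p = 1.6e-08).

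Among the polymerases and primase all 5 genes fell, most for *Prim1*, the catalytic primase subunit (-1.98 ± 0.12, adjusted p = 6.7e-12), and least for *Prim2*, its partner (-0.84 ± 0.06, adjusted p = 1.8e-10). Genes of the clamp group differed widely in size of change. *Pclaf*, whose protein binds PCNA, fell by 2.42 on the log2 scale (± 0.18, adjusted p = 8.7e-11), the largest fall of the 39, whereas *Pcna* itself fell by 0.33 (± 0.05, adjusted p = 6.3e-06). *Pclaf* was at 0.349, 0.609 and 2.30 UMIs per 10,000 in the lowest, median and highest pool of progenitor cells against 0.0344, 0.0671 and 0.814 in osteogenic cells. The large RFC subunit *Rfc1* did not pass (-0.04 ± 0.04, adjusted p = 0.40), the other 4 RFC genes fell, and with scaling to total counts *Rfc1* was called lower (-0.43). Of the RPA genes *Rpa1* fell (-0.77 ± 0.06, adjusted p = 4.2e-10) and *Rpa2* did not pass (0.02 ± 0.07, adjusted p = 0.78), and of the joining genes *Lig1* fell (-1.31 ± 0.08, adjusted p = 4.5e-12) and *Fen1* did not pass (-0.11 ± 0.06, adjusted p = 0.13). With scaling to total counts both *Rpa2* (-0.37) and *Fen1* (-0.50) were called lower.

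In the nucleotide group *Rrm1*, *Rrm2*, *Tyms*, *Tk1* and *Dut* fell, with *Tk1*, the thymidine salvage kinase, at -1.87 ± 0.11 (adjusted p = 4e-12). *Ung*, which removes uracil from DNA, was the exception and rose by 0.88 ± 0.13 (adjusted p = 4.9e-06), higher in 13 of 16 pools. It was at 0.0196, 0.0517 and 0.166 UMIs per 10,000 in the lowest, median and highest pool of progenitor cells and at 0.0476, 0.0748 and 0.132 in osteogenic cells. These levels are low and their ranges overlap. The rise held with scaling to total counts (0.50, adjusted p = 0.0015) and without pools 1 and 2 (1.06, adjusted p = 1.9e-08). In the chromatin group all 4 genes fell, between *Slbp*, the histone mRNA binding protein (-0.70 ± 0.04, adjusted p = 6.7e-13), and *Uhrf1*, which guides maintenance methylation (-2.08 ± 0.15, adjusted p = 1.1e-10).

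**Figure D2:**
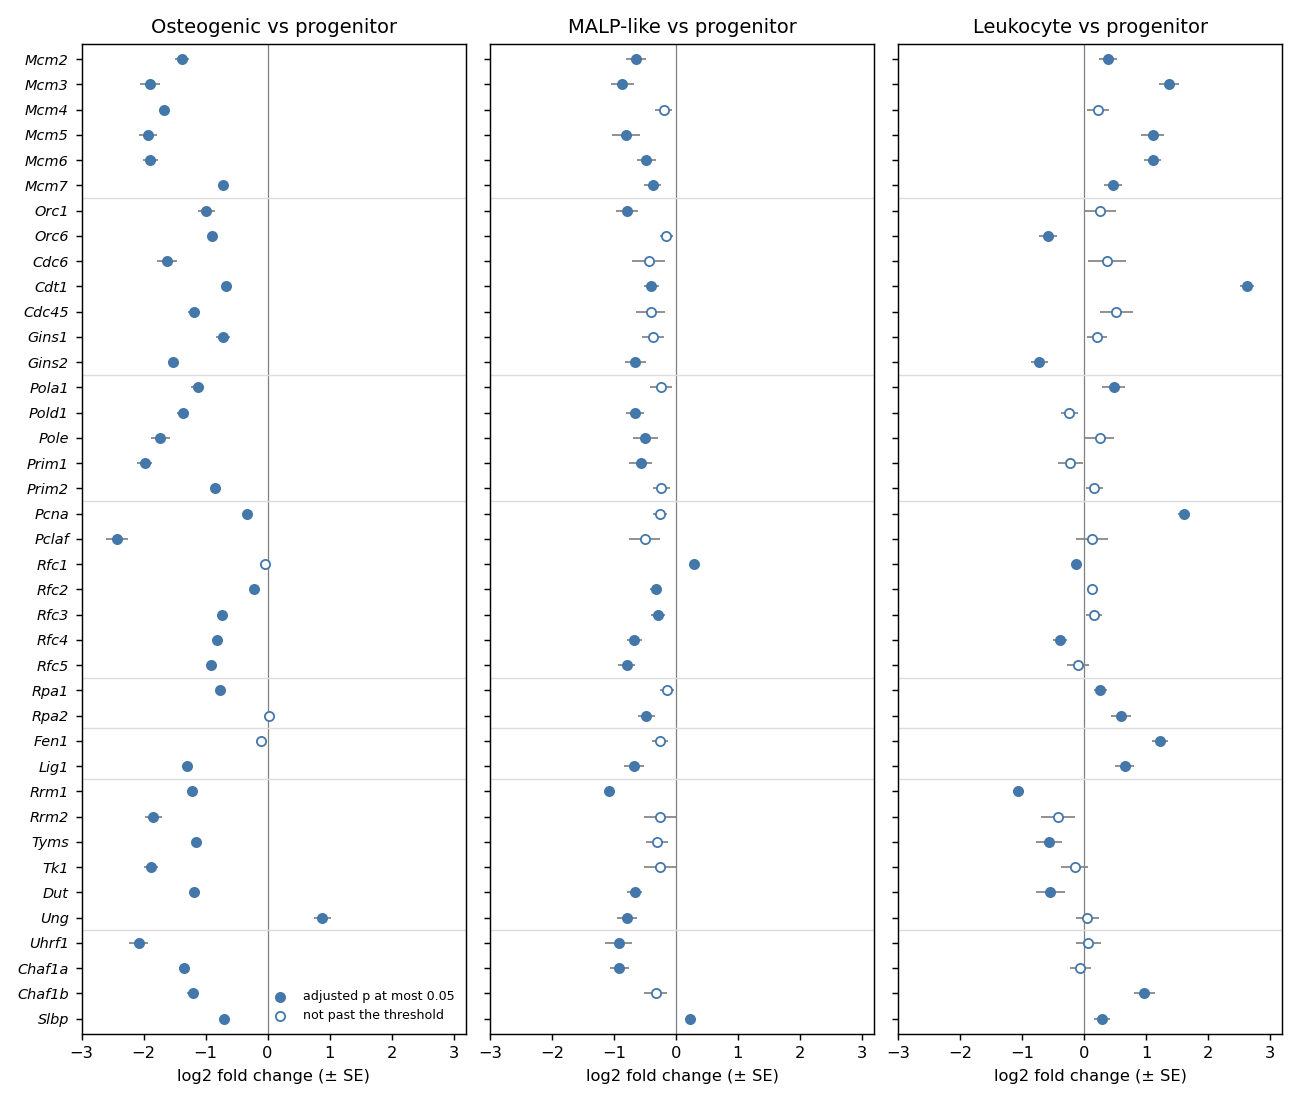
Log2 fold change (± SE) of each of the 39 genes against progenitor cells in osteogenic (left), MALP-like (middle) and leukocyte cells (right), ordered by role and separated by grey lines; filled points passed an adjusted p of 0.05. All points but *Ung* and *Rpa2* lie left of 0 in osteogenic cells, the MALP-like changes are smaller, and *Cdt1* (2.63) and *Pcna* (1.61) lead in leukocyte cells.

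Other genes of the cycle, taken from lists of related genes, moved with them. Of 32 other replication genes 30 were lower and 2 higher, with the clamp-loader component *Dscc1* at -2.23 ± 0.22, the checkpoint adaptor *Clspn* at -1.83 ± 0.18 and the firing factor *Ticrr* at -1.59 ± 0.18. All 24 mitosis genes were lower (median -1.76), as were 13 of 14 S-phase repair genes. The 24 genes of G1-S control split, with 7 higher and 14 lower. *Rb1*, the retinoblastoma protein that restrains E2F, rose by 1.42 ± 0.06 (adjusted p = 1.3e-14), and the atypical E2F repressors *E2f7* (-1.72 ± 0.15) and *E2f8* (-1.31 ± 0.13) fell.

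In MALP-like against progenitor cells the differences were smaller. Of the 39 genes 22 were lower, 2 higher and 15 not called, where 36.6% of 12281 genes tested were called lower and 36.5% higher, and the median was -0.44 against 0.01 over all genes. With scaling to total counts 14 were lower, and without pools 1 and 2, 18. *Rrm1*, the large subunit of ribonucleotide reductase, fell most (-1.08 ± 0.07, adjusted p = 1.8e-11) and was lower in 16 of 16 pools. It was at 0.654, 0.880 and 1.57 UMIs per 10,000 in the lowest, median and highest pool of progenitor cells and at 0.306, 0.559 and 0.632 in MALP-like cells, so the ranges did not overlap. Its partner subunit *Rrm2* did not pass (-0.26 ± 0.26, adjusted p = 0.39).

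Of the helicase genes 5 of 6 fell, between *Mcm7* (-0.37 ± 0.14) and *Mcm3* (-0.86 ± 0.19), and *Mcm4* did not pass (-0.20 ± 0.14). Among licensing genes *Orc1* (-0.79 ± 0.18), *Gins2* (-0.66 ± 0.17) and *Cdt1* (-0.39 ± 0.12) fell and 4 did not pass, among them *Orc6* (-0.15 ± 0.11). In the polymerase group *Pold1* (-0.66 ± 0.14), *Prim1* and *Pole* fell, and *Prim2* did not pass (-0.23 ± 0.13). *Rfc5* (-0.79 ± 0.14) and *Chaf1a* (-0.91 ± 0.16), a chromatin assembly subunit, fell, as did *Uhrf1* (-0.92 ± 0.22), *Lig1* (-0.68 ± 0.16), *Rpa2* (-0.48 ± 0.14) and *Ung* (-0.79 ± 0.16). *Rpa2* was not called with scaling to total counts (-0.21), was higher in 9 of 16 pools before TMM scaling, and was at -0.26 without pools 1 and 2 (adjusted p = 0.019). *Rpa1* (-0.14 ± 0.11) and *Fen1* (-0.25 ± 0.13) did not pass. Against this direction *Rfc1* rose by 0.30 ± 0.06 (adjusted p = 9.2e-05, 15 of 16 pools) and *Slbp* by 0.22 ± 0.07 (adjusted p = 0.0095, 14 of 16 pools), of which *Slbp* did not pass without the pool block.

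Among the control genes *Ccnd1*, the D-type cyclin of early G1, fell by 2.77 ± 0.11 (adjusted p = 4.4e-15), and the CDK inhibitors *Cdkn1c* (2.75 ± 0.16) and *Cdkn2c* (1.52 ± 0.10) rose. Of the 24 G1-S control genes 7 were higher and 15 lower. Of 32 other replication genes 12 were lower and 5 higher, with the smallest RPA subunit *Rpa3* at 1.08 ± 0.09. Over all genes tested 36.6% were called lower and 36.5% higher, so the count of lower genes in that list was near the background. All 24 mitosis genes were lower (median -0.99), which is a larger fall than the -0.44 of the replication genes, although the difference between the lists was not tested.

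Leukocyte against progenitor cells gave changes in both directions. Of the 39 genes 14 were higher, 7 lower and 18 not called, where 40% of 12292 genes tested were called higher and 44.5% lower, so the count of higher genes was near the background. The median was 0.21 against -0.06 over all genes. Pools 1 and 2 weighed on this result, since without them 25 genes were higher and 4 lower. *Cdt1* rose most (2.63 ± 0.11, adjusted p = 5.8e-15). It was at 0.607, 0.902 and 1.15 UMIs per 10,000 in the lowest, median and highest pool of leukocyte cells and at 0.0858, 0.140 and 0.400 in progenitor cells, so the ranges did not overlap. In GENCODE M21 the whole of *Cdt1* lies inside a longer gene on the same strand, *Gm20388*, and how reads were divided between them was not tested. *Pcna* rose by 1.61 ± 0.09 (adjusted p = 1.7e-12) in 16 of 16 pools, from 0.167, 0.243 and 0.526 UMIs per 10,000 in the lowest, median and highest pool of progenitor cells to 0.508, 0.739 and 1.2.

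Of the helicase genes 5 of 6 rose, from *Mcm2* (0.38 ± 0.14) to *Mcm3* (1.37 ± 0.17), and *Mcm4* did not pass (0.23 ± 0.18). *Fen1* (1.22 ± 0.13), *Lig1* (0.65 ± 0.15), *Rpa2* (0.59 ± 0.16), *Rpa1* (0.26 ± 0.11), *Chaf1b* (0.97 ± 0.17), *Pola1* (0.48 ± 0.18) and *Slbp* (0.29 ± 0.13) rose as well. Of the 6 nucleotide genes 3 were called lower and 3 were not called. *Rrm1* fell by 1.06 ± 0.09 (adjusted p = 4.6e-10) and was lower in 16 of 16 pools, at 0.437 ± 0.138 against 0.931 ± 0.231 UMIs per 10,000 (SD, n = 16). *Tyms* (-0.56 ± 0.21) and *Dut* (-0.54 ± 0.23) were also called lower, but neither passed without pools 1 and 2 (-0.29, adjusted p = 0.090, and -0.28, adjusted p = 0.19). The genes *Ung* (0.05 ± 0.19), *Rrm2* (-0.42 ± 0.28) and *Tk1* (-0.15 ± 0.22) did not pass in the fit over 16 pools. Among the licensing genes *Gins2* (-0.72 ± 0.13, lower in 16 of 16 pools) and *Orc6* (-0.58 ± 0.14) fell, and *Cdt1* was the 1 gene of this group that rose. *Rfc4* (-0.39 ± 0.11) and *Rfc1* (-0.13 ± 0.06) fell, *Rfc1* by little. *Rfc1* and *Rpa1* did not pass without the pool block. *Rfc1* also did not pass without pools 1 and 2 (-0.09, adjusted p = 0.17), where *Mcm4* did (0.49, adjusted p = 0.00076), and *Rpa1* did not pass with scaling to total counts (0.21, adjusted p = 0.094).

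The other lists held calls in both directions in leukocyte cells. Of 24 mitosis genes 7 were higher, 1 lower and 16 not called, where 40% of all genes were called higher and 44.5% lower. Of the histone and chromatin assembly genes 11 of 16 were higher and 1 lower, and of 32 other replication genes 12 were higher and 11 lower. Among the largest single changes, *E2f2*, an activating E2F, rose by 3.69 ± 0.32, *Hmgb2*, a chromatin protein, by 1.90 ± 0.25 and the proliferation marker *Mki67* by 1.88 ± 0.18, whereas *Cdkn2a* (-3.99 ± 0.11) and *Ccnd2* (-3.65 ± 0.16) fell.

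In MALP-like against osteogenic cells, the 2 stromal classes past the progenitor gate were compared. Of the 39 genes 27 were higher and 2 lower, where 39.9% of 12421 genes tested were called higher and 40.8% lower, and the median was 0.69 against -0.01 over all genes. With scaling to total counts 37 were higher and 1 lower. *Pclaf* rose most (1.98 ± 0.35), followed by *Tk1* (1.65 ± 0.33) and *Rrm2* (1.6 ± 0.34). All 5 polymerase and primase genes and all 4 chromatin genes rose. *Ung* was lower (-1.65 ± 0.13, adjusted p = 3.7e-10, 15 of 16 pools). *Rpa2* was called lower (-0.52 ± 0.10, adjusted p = 6.6e-05), although without TMM scaling its level was higher in 12 of 16 pools, and it turned to 0.17 with scaling to total counts (adjusted p = 0.14). A fit without the pool block left 17 genes higher.

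Osteogenic cells were then divided within each pool into 3 ranges of equal size by the summed UMIs of the osteocalcin gene cluster (*Bglap*, *Bglap2* and *Bglap3*). Osteocalcin is the bone matrix protein that marks mature osteoblasts. The lowest and highest ranges held 8031 cells each, with median osteocalcin of 9.38 and 256 UMIs per 10,000. For 16 of the 36 replication genes that could be tested the low-osteocalcin cells were higher and in 0 lower (0 also at an unadjusted p under 0.05 and by DESeq2), where 19.9% of 11526 genes tested were called higher and 15.9% lower, and the median was 0.24 against 0.02 over all genes. *Orc1*, *Cdc6* and *Pole* had too few counts to be tested. *Pclaf* differed most (1.22 ± 0.24, adjusted p = 0.00039, 15 of 16 pools), followed by *Prim1* (0.89 ± 0.20, adjusted p = 0.0017) and *Rrm2* (0.86 ± 0.20, adjusted p = 0.0021). Of 24 mitosis genes 22 were higher in the low-osteocalcin cells (median 0.99), led by the kinetochore motor *Cenpe* (1.41 ± 0.25). Of the 5 progenitor markers 3 were higher in the same cells, namely *Acta2* (1.28 ± 0.21), *Tagln* (0.97 ± 0.15) and *Timp3* (0.56 ± 0.11), while *Col3a1* (0.12 ± 0.11) and *Aspn* (0.20 ± 0.15) did not pass. *Cryab*, of the glial list (0.69 ± 0.11), *Lpl* (0.35 ± 0.08) and *Igfbp4* (0.30 ± 0.08) of the 7 MALP-like markers and *Lcp1* (0.39 ± 0.14) of the 6 leukocyte markers tested were also higher, the MALP-like *Cxcl12* (-0.21 ± 0.06) and *Cebpa* (-0.34 ± 0.10) were lower, and the part of these markers in the result was not tested.

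The split was sensitive to the analysis. Scaling to total counts moved the median of all genes by 0.19 and the share of calls higher from 55.5% to 91.8%, and 32 replication genes were then higher. A gate of at least 0.6 z left 6 genes higher, and a fit without the pool block left 0. The share of cells with 4 or more replication genes was 5.84 ± 4.43% in the low-osteocalcin and 4.11 ± 7.22% in the high-osteocalcin cells. It was higher in the low-osteocalcin cells in 15 of 16 pools, with a mean difference of 1.73 ± 4.07 points that did not pass (permutation test, p = 0.103). Pool 2 was the exception, with 16.7% in the low-osteocalcin and 29.5% in the high-osteocalcin cells.

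To see which genes accompanied replication within a class, thinned cells with 4 or more of the 39 genes were compared with the rest of their class, over full counts summed per pool. The 39 genes divide these cells, so their own differences are a description with no test, and only genes outside the 39 were read. Progenitor, osteogenic, MALP-like and leukocyte cells gave 16, 14, 15 and 16 pools with at least 20 cells on both sides. In progenitor cells 22.4% of 11345 genes tested were called higher and 26% lower.

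All 24 mitosis genes were higher in progenitor cells with 4 or more replication genes, with a median of 3.67, as were all 13 S-phase repair genes tested (median 2.95), 28 of 31 other replication genes (median 1.66, 1 lower) and 14 of 15 histone and chromatin assembly genes (median 1.86, 1 lower). *Rad51ap1* (4.63 ± 0.11), a recombination cofactor, *Ccna2* (4.18 ± 0.11), the cyclin of S and G2, and *Asf1b* (4.06 ± 0.12), a histone chaperone, were among the leaders. The G1-S control genes split, with 13 of 23 higher, 4 lower and a median of 0.36. *E2f8* (3.57 ± 0.26), *E2f7* (3.42 ± 0.19) and *Ccne2* (2.03 ± 0.16) rose, while *Cdkn1a*, the p53-induced CDK inhibitor, fell by 0.32 ± 0.04 (adjusted p = 2e-07).

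Outside all lists, the 10 genes of largest rise in progenitor cells were *Esco2* (5.64 ± 0.14), which acetylates cohesin during S phase, *Pbk* (5.27 ± 0.11), *Mxd3*, *Ska1*, *Fbxo5*, *Melk*, *Pimreg*, *Cep55*, *Ttk* and *Iqgap3* (4.30 ± 0.18), each higher in 16 of 16 pools. Those of largest fall were *Stmn2* (-1.27 ± 0.23), *C1qtnf3* (-1.22 ± 0.15), *Aldoc* (-1.15 ± 0.11), *Pgam2* (-1.15 ± 0.24) and *Ctla2a* (-1.09 ± 0.12). *Esco2* rose by 5.80 ± 0.23 in osteogenic, 6.06 ± 0.21 in MALP-like and 5.64 ± 0.18 in leukocyte cells as well. *Pgam2* and *Aldoc*, both glycolytic enzymes, also fell in osteogenic cells (-1.67 ± 0.13 and -0.83 ± 0.09).

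**Figure D3:**
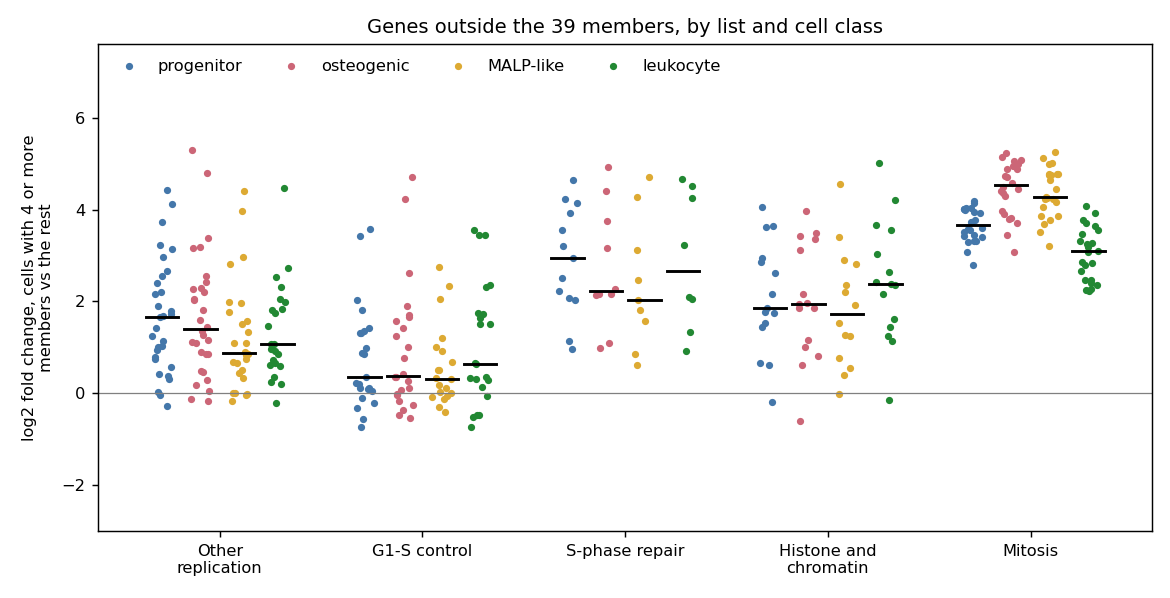
Log2 fold change of genes outside the 39, in cells with 4 or more replication genes against the rest of the class; each point is a gene, colours give the class and black bars the median of the list. Mitosis genes lie highest in every class, with medians of 3.67, 4.53, 4.26 and 3.10 in progenitor, osteogenic, MALP-like and leukocyte cells, and G1-S control genes lie on both sides of 0.

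Mitosis and S-phase repair genes were higher in the other classes too, and classes were not tested against each other. Of the remaining lists in MALP-like cells, most replication and histone genes tested were called higher. The G1-S control genes tested there were called higher or not called, apart from *Cdkn1c*. *Pold4*, of the replication list (-0.16 ± 0.05), and *Cdkn1c*, of the G1-S list (-0.40 ± 0.12), were called lower there. Higher calls took 14.8% of 11687 genes in osteogenic, 12.1% of 10038 in MALP-like and 24.2% of 9052 in leukocyte cells, and lower calls 19.9%, 11.6% and 25.8%. All mitosis genes tested were higher (24 of 24, 23 of 23 and 24 of 24), and all S-phase repair genes tested were higher (10, 9 and 8). Detection of both sets in the same cell was counted at 4000 UMIs, where a gene without a UMI may still be expressed. Of cells with 4 or more replication genes, 42.7 ± 8.44% in progenitor, 30.4 ± 8.77% in osteogenic, 25.0 ± 12.9% in MALP-like and 41.9 ± 14.2% in leukocyte cells also had 4 or more of the 24 mitosis genes detected. Of the remaining cells 2.81%, 0.729%, 0.540% and 3.2% did.

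In each of the 3 stromal classes most markers of the class were lower in cells with 4 or more replication genes. Because the gate used these genes, and a cell with fewer marker UMIs is less likely to pass it, these values describe cells that passed. In osteogenic cells *Bglap* (-1.14 ± 0.10), *Bglap2* (-1.0 ± 0.11) and *Bglap3* (-1.13 ± 0.11) fell, as did 9 of 11 osteogenic markers, and 3 of the 5 progenitor markers rose, namely *Acta2* (0.97 ± 0.13), *Tagln* (0.94 ± 0.13) and *Timp3* (0.53 ± 0.09), while *Col3a1* (-0.09 ± 0.08) and *Aspn* (-0.10 ± 0.18) did not pass. The 3 osteocalcin genes are near-identical copies, so reads may be divided among them. In MALP-like cells 6 of 7 markers fell, led by *Fabp4* (-1.14 ± 0.16), the adipocyte fatty acid carrier. Of the progenitor markers there *Acta2* rose (0.37 ± 0.08), *Aspn* fell (-0.50 ± 0.15) and 3 did not pass. In progenitor cells *Aspn* (-0.69 ± 0.08), *Timp3* (-0.48 ± 0.06) and *Col3a1* (-0.46 ± 0.04) fell, and *Acta2* rose by 0.16 ± 0.05. Of the macrophage markers 0 passed in the 3 stromal classes (6, 6 and 4 tested, and 0 at an unadjusted p under 0.05, edgeR). In MALP-like cells the granulocyte markers *S100a8* (1.11 ± 0.52) and *S100a9* (1.14 ± 0.50) did not pass, but had an unadjusted p under 0.05 (edgeR). *Camp* did not pass there (0.59 ± 0.41). Of the myeloid precursor markers *Prtn3* was called lower (-0.65 ± 0.19, adjusted p = 0.015) and *Kit* did not pass. The part of leukocyte RNA in these values was not tested.

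Leukocyte cells with 4 or more replication genes differed from the rest in lineage markers. All 6 macrophage markers fell (median -0.84), with the mannose receptor *Mrc1* at -1.0 ± 0.11 and *Csf1r* at -0.72 ± 0.09. Of the granulocyte markers 5 of 6 rose (median 2.21), with *Ngp* at 2.43 ± 0.39, and all 5 myeloid precursor markers tested rose, with *Mpo* at 2.93 ± 0.33 and *Elane* at 2.56 ± 0.33. The immunoglobulin genes *Iglc2* (-4.73 ± 0.76), *Igkc* (-4.55 ± 0.81) and *Ighm* (-4.35 ± 0.54) fell, and were higher in 1, 4 and 3 of 16 pools. Dividing the class by marker lists gave 4 or more replication genes in 18.2% of 4188 thinned macrophage-gated cells (95% exact binomial interval 17.0 to 19.4), 49.9% of 567 granulocyte-gated cells (45.7 to 54.1), 62.5% of 395 myeloid precursor-gated cells (57.6 to 67.3), 63.4% of 246 T cell-gated cells (57.1 to 69.4) and 24.8% of 234 B cell-gated cells (19.4 to 30.8). The intervals cover counting error only and treat cells as independent, and the spread between pools was wider. Over pools with at least 20 thinned cells the share ran from 7.46% to 31.8% in macrophage-gated (n = 16), from 29.0% to 88.0% in granulocyte-gated (n = 9), from 36.8% to 79.1% in myeloid precursor-gated (n = 7) and from 45.5% to 79.2% in T cell-gated cells (n = 3), and 1 pool had enough B cell-gated cells. Granulocyte-gated cells had a median of 3542 UMIs, so 703 of 1270 were too shallow and the share describes the deeper ones. Without thinning the share was 26.7% in macrophage-gated, 29.8% in granulocyte-gated, 52.6% in myeloid precursor-gated, 47.7% in T cell-gated and 23.3% in B cell-gated cells, at median depths of 5012, 3542, 5655, 3897 and 2692 UMIs. Among the 7847 leukocyte cells that met no sub-gate the share was 23.8% of 3871 thinned cells and 13.3% to 33.7% over 16 pools.

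*Cdt1* was also measured within the sub-gates of the leukocyte class. It was at 0.881 ± 0.176 UMIs per 10,000 in macrophage-gated cells (SD, n = 16), with 0.605, 0.910 and 1.17 in the lowest, median and highest pool, against 0.312 ± 0.188 in granulocyte-gated cells (n = 11) and 0.449 ± 0.105 in myeloid precursor-gated cells (n = 10). The sub-gate with the lowest share of cells with 4 or more of the 39 genes thus had a *Cdt1* level above those of both. *Pcna* was at 0.818 ± 0.220 in macrophage-gated, 0.870 ± 0.431 in granulocyte-gated (n = 11) and 0.940 ± 0.248 in myeloid precursor-gated cells (n = 10).

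How closely each gene kept company with the others was described by the share of thinned cells in which it was detected, once with 4 or more of the other 38 genes and once with fewer. Among cells that had a given gene, the share with 4 or more others was highest for *Cdc6* in progenitor (88.6%) and osteogenic cells (61.5%). It was highest for *Tk1* in MALP-like (74.7%) and leukocyte cells (84.9%). By the ratio of the 2 detection shares *Tk1* was the most tied to the rest in progenitor, osteogenic and MALP-like cells. In progenitor cells it was detected in 15.7 ± 6.83% of cells that had 4 or more of the others and in 0.751 ± 0.403% of cells that had fewer, a ratio of 20.9. The median ratio over the 39 genes was 4.53 in progenitor, 5.00 in osteogenic, 3.51 in MALP-like and 4.63 in leukocyte cells. At the other end, *Rfc1* had a ratio of 1.63 in progenitor cells (23.1% against 14.2%) and *Ung* one of 1.43 in osteogenic cells (4.05% against 2.84%). *Slbp* was lowest in MALP-like cells (29.7% against 23.5%). *Cdt1* was lowest in leukocyte cells, where 30.2% of cells with 4 or more other genes and 23.2% of cells with fewer had it. *Rfc1* (1.73, 20.7% against 11.9%) and *Pcna* (1.81, 35.1% against 19.4%) came next there, while *Uhrf1* had the highest, 16.7.

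**Figure D4:**
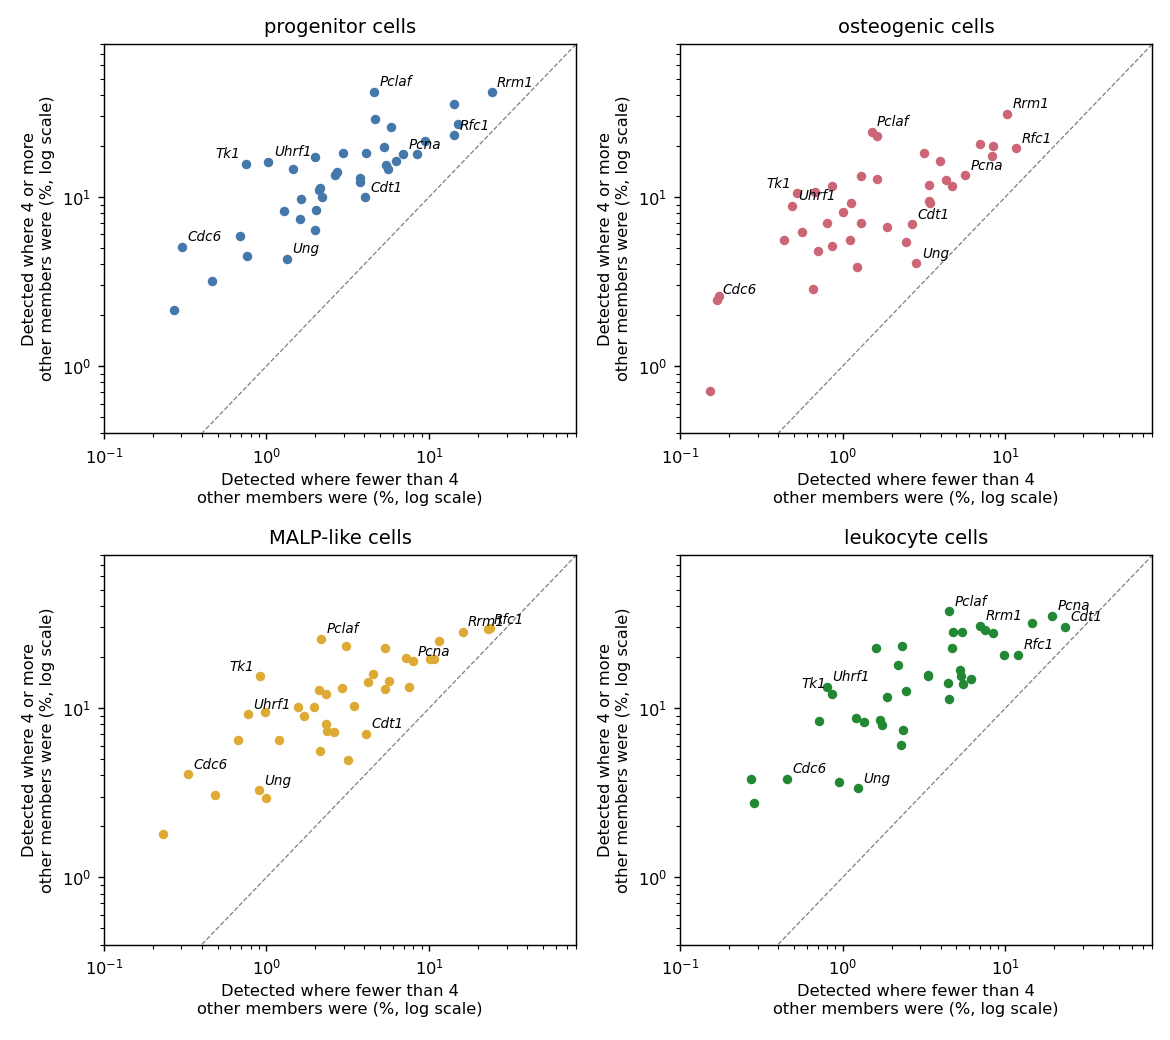
Detection of each of the 39 genes in cells with 4 or more of the other 38 (y, %) and in cells with fewer (x, %), both on log scales, in thinned cells of the 4 classes; values are means over pools and the dashed line marks equal detection. *Tk1*, *Uhrf1*, *Cdc6* and *Pclaf* lie far above the line in each class, whereas *Rfc1*, *Ung* in osteogenic cells and *Cdt1* in leukocyte cells lie near it.

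Finally, the shares of cells with 4 or more replication genes were compared between classes across pools. Pools 1 and 2 formed a cluster of their own in progenitor cells, so the relations were computed over the other 14, a choice made after the values were seen. Over all 16 pools the progenitor and osteogenic shares had r = 0.96 (permutation test, adjusted p = 0.0064, rho = 0.56), which rested on pools 1 and 2. The progenitor share had r = 0.33 with the MALP-like share (permutation test, adjusted p = 0.40, rho = 0.76) and r = 0.19 with the leukocyte share (adjusted p = 0.58, rho = 0.56) over the same 16. Over these 14 pools the progenitor share rose with the MALP-like share (Pearson's r = 0.77, permutation test, adjusted p = 0.0067 over 6 pairs, Spearman's rho = 0.86) and with the leukocyte share (r = 0.68, permutation test, adjusted p = 0.027, rho = 0.67). Without the 2 pools farthest from the median of the x measure r was 0.72 and 0.53. The MALP-like and leukocyte shares were also related (r = 0.60, permutation test, adjusted p = 0.043, rho = 0.59, and 0.53 without the farthest 2), but over the same 14 pools this r was 0.18 at 2000 UMIs and 0.25 without thinning and did not pass in either. It also did not pass with the gate of 0.6 z (permutation test, adjusted p = 0.057), with 3 or more genes required (adjusted p = 0.051) or without the upper limit on detected genes (adjusted p = 0.096). It passed in the second run, with 5 or more genes, with doublets kept and with pool 13 also left out. The relation of progenitor and leukocyte shares did not pass over 14 pools in the second run (r = 0.51, permutation test, adjusted p = 0.092), with the gate of 0.6 z (adjusted p = 0.057) or without the upper limit on detected genes (adjusted p = 0.057). It and the relation with the MALP-like share also depended on thinning. At 2000 UMIs the progenitor share had r = 0.44 with the MALP-like share (permutation test, adjusted p = 0.35) and r = 0.59 with the leukocyte share (adjusted p = 0.15), and without thinning r was 0.85 (adjusted p = 0.0065) and 0.14 (adjusted p = 0.60), all over 14 pools. The relations of the osteogenic share with the progenitor (r = 0.18, adjusted p = 0.68), MALP-like (r = 0.35, adjusted p = 0.33) and leukocyte shares (r = 0.07, adjusted p = 0.82) did not pass the same permutation test at 4000 UMIs over 14 pools. Without thinning they were 0.59, 0.68 and 0.70 and passed (permutation test, adjusted p = 0.038, 0.013 and 0.013). The osteogenic and MALP-like shares also passed at 4000 UMIs with 3 or more genes required (r = 0.68, permutation test, adjusted p = 0.016) and with doublets kept (r = 0.59, adjusted p = 0.039).

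Thinned shares were also set against depth, and the relation was negative in each class. Over the same 14 pools the share and the median UMIs of the class had r = -0.21 in progenitor cells (permutation test, p = 0.473). In osteogenic cells r was -0.55 (p = 0.0533), in MALP-like cells -0.49 (p = 0.0714) and in leukocyte cells -0.65 (p = 0.0128, same test). Spearman's rho was -0.46 in progenitor, -0.40 in osteogenic, -0.60 in MALP-like and -0.68 in leukocyte cells. These p-values were not adjusted over the classes, unlike those of the relations between classes, and only the leukocyte one was under 0.05. The part of depth in the relations between classes was not tested. Cells of all classes in a pool come from the same mice and the same droplet library, which cannot be told apart. Pools 1 and 2 had median depths of 3774 and 10291 UMIs per cell.

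**Figure D5:**
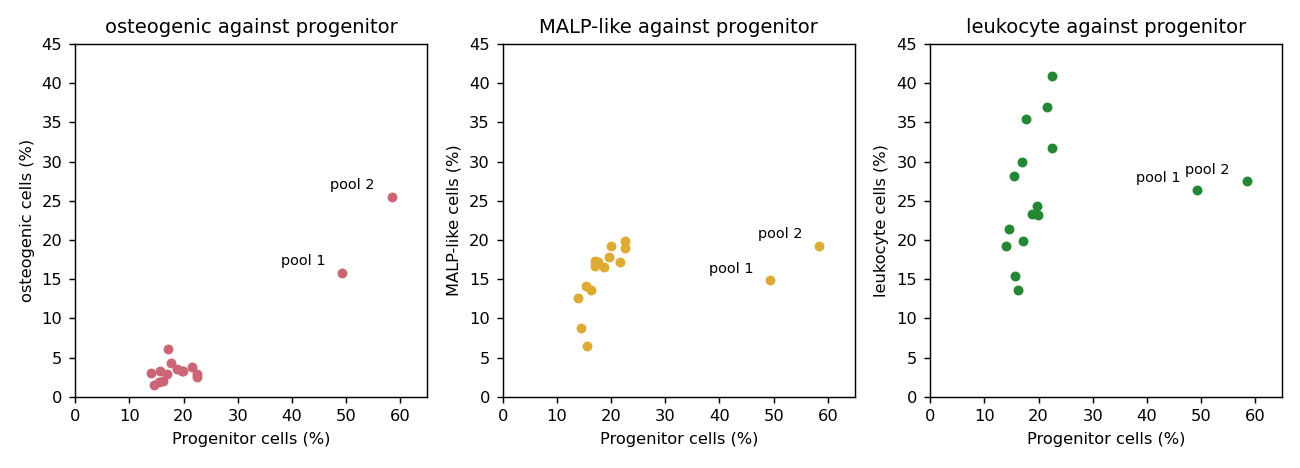
Share of thinned cells (%) with 4 or more of the 39 genes in osteogenic (left), MALP-like (middle) and leukocyte cells (right) against progenitor cells of the same pool; each point is a pool. The other 14 pools sit between 14.0% and 22.6% on the x axis, and pools 1 and 2 (49.3% and 58.4%) stand apart, with high osteogenic shares (15.8% and 25.5%) but MALP-like and leukocyte shares inside the range of the other pools.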

How the data were processed

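Libraries were 10x Genomics 3' single-cell libraries of pooled BMSC-OBs. The deposited files hold UMI counts per gene and barcode, which the authors made with Cell Ranger 5.0.0 on mm10, per the labels. The 39 genes, the related lists and the tests were chosen with earlier results of these data known. The limits of 400 and 6200 are worded as reads in the study's methods and were taken here as detected genes. Barcodes were kept where 400 to 6200 genes were detected and where mitochondrial, Rpl and Rps transcripts took no more than 10%, 20% and 15% of UMIs, and the highest-scoring simulated-doublet neighbours (a share that grew with the number of barcodes) were removed. A cell entered the class of highest mean marker z where this was at least 0.3 and led by 0.3. Counts were summed per pool and class (20 cells or more) and tested with edgeR 4.0.16 (R 4.3.3, filterByExpr, TMM, quasi-likelihood F-test, pool as a block, Benjamini-Hochberg over all genes tested, threshold 0.05). The script was tested on simulated data in which few genes changed, so TMM scaling was not tested where most genes differ. SEs were derived from the fold change and its F statistic. Shares were compared by sign-flip permutation over pools and relations by 100000 permutations (scipy 1.17.1).

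Both sides of each comparison come from the same droplet libraries, which is where the pairing by pool comes from. Deviations from the group mean correlated within a pool (lowest r 0.152 over the comparisons). Between different pools the medians were -0.0399 to -0.0121. Taking deviations from the group mean holds these medians near 0, so they say nothing further about the pairing. Total UMIs per pool limit precision, and at a few UMIs per 10,000 for all 39 genes together a cell without a UMI may still express the gene. Named genes were the extremes of each role, members against the common direction, the 3 largest changes of each list and, outside the lists, the 10 highest and 5 lowest with at least 10 CPM. Alternatives were DESeq2 1.42.0, no filter, no pool block, the other run, a stricter gate, doublets kept, pool 13 left out, other thinning depths and other minimum numbers of genes. Scaling to total counts, leaving out pools 1 and 2 and lifting the upper limit on detected genes, and the relations without pools 1 and 2 under each other setting, were added after seeing the data. In GENCODE M21, 23 of the 39 genes overlap another gene, 1 of them (*Cdt1*) a protein-coding gene on the same strand.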

Additional observations from a re-analysis of the deposited data

Results flagged for a closer look

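Cells that met no gate were outside the comparisons. A mean of 19.9998% of them (SD 11.3, n = 16 pools, thinned to 4000 UMIs) had 4 or more replication genes, from 9.17% in pool 7 to 50.4% in pool 2, against a mean of 4.11% (median 1.59%) in the osteogenic cells richest in osteocalcin, the lowest share of any set of cells measured. Their median depth was 3037 UMIs, and 9825 of 17603 were too shallow to be thinned.

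Cells above the upper limit of 6200 detected genes were also left out. Of 2252 such cells 834 (37.0%, 95% exact binomial interval 35.0 to 39.1, counting error only) had 4 or more replication genes after thinning, with 42.6% of those in the progenitor gate, 17.3% in the osteogenic gate, 35.2% in the MALP-like gate and 57.9% of 38 in the leukocyte gate. Each share was higher than that of all thinned cells of the same class below the limit (23.7% in progenitor, 4.77% in osteogenic, 16.3% in MALP-like and 25.6% in leukocyte cells). Both sides were taken over the cells of all pools together, and the part of pool make-up was not tested. Their median depth was 50451 UMIs, and the part of doublets among them was not tested.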

How the results depend on the processing

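Of 372 alternative values of the main results, 325 were counted as unchanged. Of 570 values of single named genes 536 were, 33 fell short of the threshold and 1 turned. Counts were unchanged within a fixed factor, and mean shares and summed levels within the SD over pools. For class differences, relations and named genes only direction and side of the threshold were compared, not size. The counts of genes higher in MALP-like than progenitor cells were 1 without the filter and 1 without the pool block, and the count lower was 14 with scaling to total counts. In leukocyte against progenitor cells 25 were higher and 4 lower without pools 1 and 2, and 4 were lower with the gate of 0.6 z. In MALP-like against osteogenic cells 17 were higher without the block, 4 were lower in the second run and 1 with scaling to total counts, where *Rpa2* turned to 0.17. Between low and high osteocalcin cells 0 were higher without the block, 6 with the gate of 0.6 z and 32 with scaling to total counts, and 1 was lower in the second run. In progenitor cells with 4 or more genes, without the block 2 G1-S genes and 0 histone genes were lower, and 0 histone genes with doublets kept or with scaling to total counts. The cause of these changes was not tested.

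Mean shares without thinning were 65.1% (progenitor), 52.0% (osteogenic) and 48.0% (MALP-like). With 3 or more genes required they were 36.3%, 11.7%, 32.0% and 40.0% (leukocyte), with 5 or more 8.13% in MALP-like cells, and thinned to 2000 UMIs 5.59% in MALP-like and 9.79% in leukocyte cells. Progenitor minus MALP-like was 4.32 points with 3 or more genes and did not pass the permutation test. Progenitor minus leukocyte was 1.5 points at 2000 UMIs, 37.4 without thinning and -7.92 without pools 1 and 2. Without thinning osteogenic minus MALP-like was 3.98, osteogenic minus leukocyte 24.4 and MALP-like minus leukocyte 20.4 points. The summed level in MALP-like cells was 9.54 without the 50 most abundant genes.

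Among relations over pools, r without pools 1 and 2 (14 pools) was 0.18 for progenitor and osteogenic, 0.77 for progenitor and MALP-like and 0.68 for progenitor and leukocyte shares. Over all 16 pools, pools 1 and 2 included, r without thinning was 0.87 for progenitor and MALP-like, 0.67 for osteogenic and MALP-like, 0.57 for osteogenic and leukocyte and 0.12 for MALP-like and leukocyte shares, and the last was 0.21 at 2000 UMIs and 0.51 without the upper limit on detected genes. With the gate of 0.6 z, again over 16 pools, osteogenic and MALP-like shares had r = -0.017 and osteogenic and leukocyte shares -0.0017, and -0.035 with 5 or more genes. Depth limits the shares, since shallow cells were left out most in the leukocyte class. Without the pool block 13 calls of named genes were lost, namely *Slbp* in MALP-like against progenitor cells, *Rfc1* and *Rpa1* in leukocyte against progenitor cells, *Cdc6*, *Lig1*, *Uhrf1* and *Chaf1a* in MALP-like against osteogenic cells, and *Mcm5*, *Orc6*, *Prim1*, *Pclaf*, *Rrm2* and *Uhrf1* between low and high osteocalcin cells. Leaving out pool 13 changed 2 calls of named genes.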
